A study of Mus musculus with 4 samples.

Results

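The comparison described here is that between P4htm-/- (KO) and WT mice in the ipsilateral cortex, the side of the brain injured by permanent occlusion of the left middle cerebral artery (MCAO). It rests on 2 of the 4 arrays of the series, 1 for each genotype, and was made for every gene that the array names by at least 1 probe set of its own, which gave 18194 genes. All mice were C57BL/6J, 3 months old and killed 24 h after the occlusion, and the RNA of 4 mice was pooled for each array. The P4htm-/- line carries the disruption in every cell, had been backcrossed to C57BL/6 and is a single line. The sex of the mice was not given in the labels. The contralateral cortex of the same mice, measured on the other 2 arrays, gave the genotype difference away from the injury, and its median is set beside that of each gene list. With 1 pooled array for each condition there was no replicate check, no test was possible and no p-value is given.

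P4htm encodes a transmembrane prolyl 4-hydroxylase of the endoplasmic reticulum, an enzyme that needs oxygen and 2-oxoglutarate and can act on the alpha subunits of the hypoxia-inducible factors (HIF), which switch on genes of glycolysis, vessel growth and red cell formation when oxygen is low. In a permanent occlusion the cortex supplied by the artery dies within hours, while microglia, astrocytes and vessel cells around it release chemokines and cytokines that draw leukocytes from the blood. Heat shock proteins of the 70 kDa family refold damaged proteins in the cells that survive. Genes of this response are read here from the bulk of the dissected tissue, where fewer cells of a type and less RNA per cell cannot be told apart.

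All levels below are log2 values, and a difference is KO minus WT, so that a negative difference means a lower level in the P4htm-/- tissue. Where 4 levels are given, they stand in the order WT contralateral, WT ipsilateral, KO contralateral and KO ipsilateral. A gene was called detected when 1 of the 2 arrays compared lay above 4.80, the 95th percentile of probe sets that target receptors of smell, pheromones and bitter taste, which the cortex is not known to use. Of the 18194 genes, 13328 were detected in the ipsilateral pair. The words higher and lower are kept for genes that were detected and that differed by 1.5-fold or more, which is 0.585 on the log2 scale, and other differences are given as values.

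The genotypes differed little in the injured cortex. Of the detected genes, 74.1% differed by no more than 0.2, and the differences had an SD of 0.194, against 86.1% and 0.150 in the contralateral pair. In the P4htm-/- ipsilateral cortex 12 genes were higher, 0.0900% of those detected, and 77 were lower, 0.578%. In the contralateral pair 30 genes were higher, 0.228% of 13175, and 21 were lower, 0.159%, or 0.387% in either direction. Past 2-fold, 5 genes were lower and 0 were higher in the injured cortex. The scatter within these arrays gives a scale for such values. The ipsilateral differences of the 80 receptor probe sets had an SD of 0.196, and 0 of them were past 1.5-fold. Contralaterally their SD was 0.176 and 1 was past 1.5-fold. Detected probe sets of the same gene had an ipsilateral SD of 0.155 around the mean of their gene. Neither scatter includes the variation between mice.

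**Figure D1:**
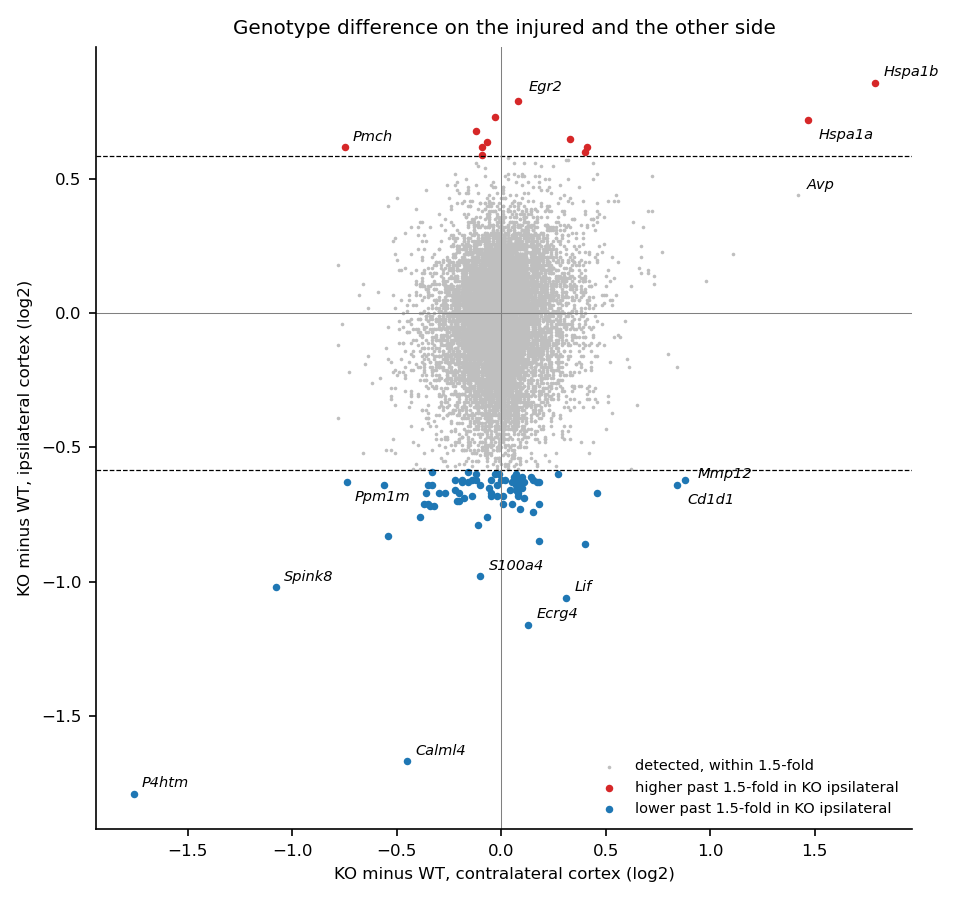
Each point is a detected gene, with its KO minus WT difference in contralateral cortex on the x axis and in ipsilateral cortex on the y axis, both on the log2 scale and from 1 pooled array for each condition. The dashed lines mark 1.5-fold. Most of the 77 lower genes (blue) lie near 0 on the x axis, while P4htm, Spink8 and Ppm1m were lower and Hspa1a and Hspa1b higher on both sides.

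P4htm itself read 10.03, 10.02, 8.27 and 8.23. Both P4htm-/- arrays lay below both WT arrays, and the injury made no visible difference to the level in either genotype. The ipsilateral difference was -1.79, and a second P4htm probe set gave -1.58. Whether these probe sets lie inside the disrupted part of the gene was not determined, so the remaining signal cannot be read as remaining transcript.

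Hspa1b had the highest difference of any detected gene in the P4htm-/- injured cortex. It and Hspa1a, which came after Egr2 and Cdkl1, encode inducible heat shock protein 70, the chaperone made after protein damage. Hspa1b read 10.21, 11.84, 12 and 12.70, a difference of 0.86, and its other probe sets gave 0.87 and 0.89. Hspa1a read 8.34, 10.07, 9.81 and 10.79, a difference of 0.72. For both genes the WT contralateral array was the lowest and the KO ipsilateral array the highest, and the contralateral differences of 1.79 and 1.47 were larger than the ipsilateral ones. Hspa1a and Hspa1b are near-identical neighbouring copies, so their probe sets may share signal. Over all 20 heat shock genes measured, this pair included, the median was 0.07 against 0.03 contralaterally, 15 members lay above 0, and the KO ipsilateral array was the highest of the 4 in 14. The pair made 2 higher genes of 20 detected, against 0.0900% of all detected genes, and none of the others passed the fold rule. Dnajb1, a co-chaperone of the same family of reactions, read 11.05, 11.06, 11.30 and 11.30. Hsp90aa1, the inducible form of the chaperone Hsp90, had a difference of 0.20, Hsph1 one of 0.06 and Hspb1, a small heat shock protein, one of 0.10. Hspe1, the mitochondrial cochaperonin, went the other way at -0.45.

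The promoters of the pair are shown because they are the only higher genes that are close copies of each other. The windows, taken from the RefSeq annotation of GRCm38.p6, run from 250 bases before to 50 bases after the start, are written 5′ to 3′ on the strand of the gene, and carry in capitals the letters GAANNTTC, the core of a heat shock element, searched on both strands.
Hspa1a, chr17:34972107-34972406, minus strand: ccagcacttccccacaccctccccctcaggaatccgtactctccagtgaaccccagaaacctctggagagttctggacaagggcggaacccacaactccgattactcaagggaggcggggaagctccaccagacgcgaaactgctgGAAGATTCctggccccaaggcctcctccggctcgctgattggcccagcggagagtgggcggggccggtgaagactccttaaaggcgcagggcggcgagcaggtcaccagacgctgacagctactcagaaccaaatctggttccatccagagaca
Hspa1b, chr17:34959189-34959488, minus strand: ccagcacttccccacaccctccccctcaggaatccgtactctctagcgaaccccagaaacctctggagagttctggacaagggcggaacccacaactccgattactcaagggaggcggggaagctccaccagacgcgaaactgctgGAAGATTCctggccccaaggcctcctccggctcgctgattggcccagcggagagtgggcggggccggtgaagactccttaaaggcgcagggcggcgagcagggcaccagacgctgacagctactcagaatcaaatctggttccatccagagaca
The windows differ at 4 of 300 positions. Each holds the motif once, 104 bases before the start. Of 32851 promoter windows of the same length, 7.86% hold it.

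Immediate early genes, which neurons switch on within minutes of strong activity or injury, were higher in 2 of 49 members, all detected, against 0.0900% of all detected genes. Of the 49, 39 lay above 0, with a median of 0.16. The median over all 18194 genes was -0.01, with 8591 above and 9155 below 0, and that of the immediate early genes in the contralateral pair was 0.08. Egr2, a zinc finger transcription factor, read 6.88, 6.18, 6.96 and 6.97, so that the WT ipsilateral array alone was low. Its difference was 0.79, and its other probe set gave 0.62. Arc, a protein of the postsynaptic density that governs removal of glutamate receptors, read 8.96, 8.66, 9.36 and 9.26, a difference of 0.60, and here both P4htm-/- arrays lay above both WT arrays. Fos, the best known member, read 9.61, 9.95, 10.15 and 10.37. Among other transcription factors of the list, Fosl2 had a difference of 0.51, Nr4a1 of 0.48 and Junb of 0.46. Dusp4, a phosphatase that shuts off MAP kinases, had one of 0.49. Fosl1 was the largest exception at -0.57, and read 4.22, 5.43, 4.48 and 4.86, so it was above background in the injured cortex of each genotype and in neither contralateral cortex.

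RefSeq lists 5 starts for Egr2, and 4 of their windows, which overlap in part, hold a CArG box, the site known for the serum response factor. The window of 1 of these starts is shown for comparison with the heat shock genes.
Egr2, chr10:67537620-67537919, plus strand, GRCm38.p6: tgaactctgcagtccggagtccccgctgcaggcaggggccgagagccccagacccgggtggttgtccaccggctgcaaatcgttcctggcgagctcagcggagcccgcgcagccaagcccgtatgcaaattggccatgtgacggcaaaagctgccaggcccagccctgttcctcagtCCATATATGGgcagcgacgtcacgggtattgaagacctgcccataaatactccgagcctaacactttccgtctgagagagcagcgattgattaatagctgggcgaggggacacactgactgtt
The box, in capitals, lies 73 bases before the start, and 1.63% of promoter windows hold one. The letters TGACGTCA, the site known for CREB, were not found in this window and occur in 1.79% of all windows. Only these exact letters were searched, so a site that differs from them would be missed.

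Of the other higher genes, Ngp and Pmch stand in marker lists of neutrophils and of hypothalamic neuropeptides, and the rest in no list. Cdkl1, a kinase related to the cyclin-dependent kinases, read 6.50, 6.19, 6.47 and 6.92, a difference of 0.73, but its other probe set gave 0.05. Chsy3, an enzyme of chondroitin sulfate synthesis, read 6.26, 5.53, 6.19 and 6.17, and Dach1, a transcriptional cofactor, read 6.57, 5.99, 6.48 and 6.58. On these probe sets of both genes only the WT ipsilateral array stood apart. The other Dach1 probe sets did not repeat this, at 5.62, 5.61, 5.87 and 5.87 and at 5.30, 5.22, 5.14 and 5.60. Uevld had a difference of 0.68 and Ifi27l2b one of 0.62. Ngp, a granule protein of immature neutrophils, read 4.09, 4.25, 4.42 and 4.90, so only the KO ipsilateral array was above background and the difference is at least 0.10. Astn2, which acts in neuronal migration, is bounded in the same way at 0.17. Pmch, the precursor of melanin-concentrating hormone, read 6.39, 6.78, 5.64 and 7.40. It was higher on the injured side by 0.62 and lower on the other by -0.75, with both P4htm-/- arrays at the extremes.

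**Figure D2:**
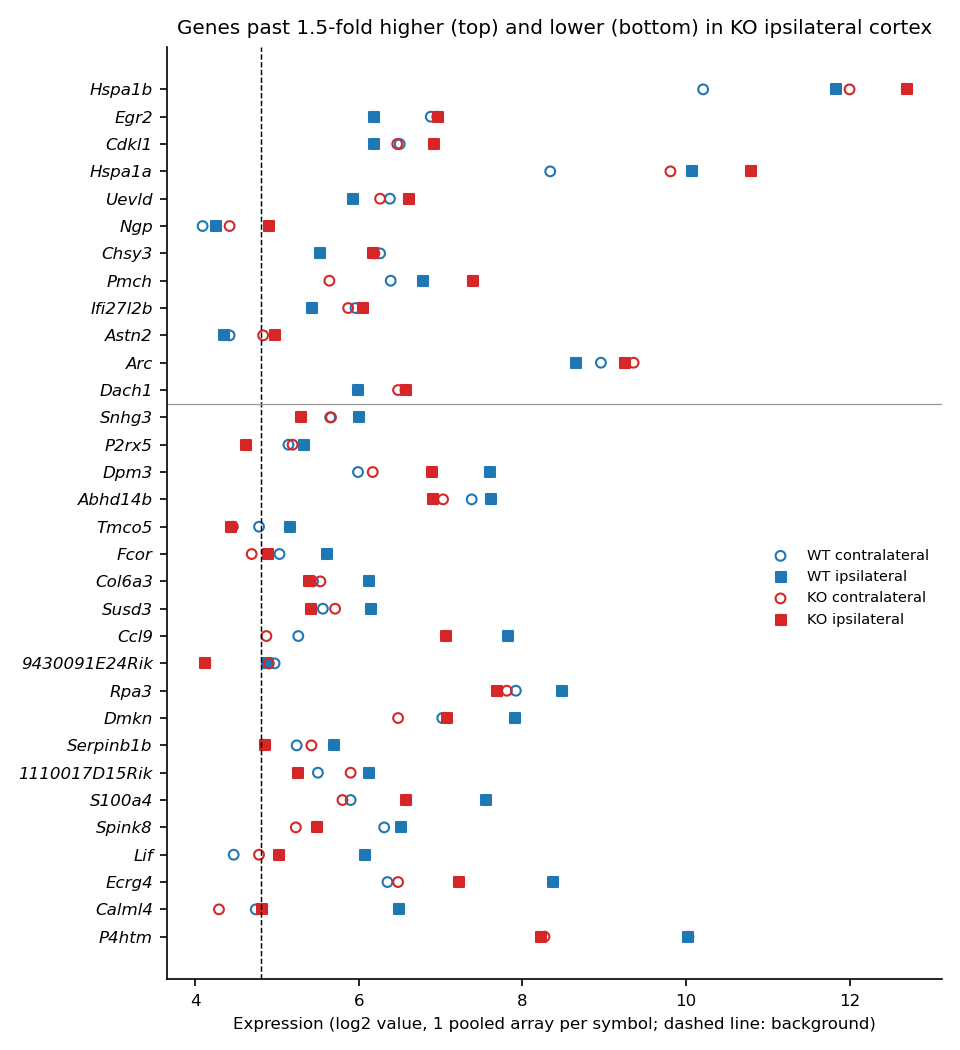
The log2 level of the 12 higher genes and of the 20 lowest genes on each of the 4 pooled arrays, with circles for contralateral and squares for ipsilateral cortex, blue for WT and red for KO, and background as a dashed line. Among the lower genes the WT ipsilateral array (filled blue) is in most rows the highest, as it was for 74 of all 77 lower genes. The choice of these genes favours that order.

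The choice of the 77 lower genes fixes that the WT ipsilateral array lies above the KO ipsilateral one. It also favours genes in which the WT ipsilateral array is the highest of the 4 or the KO ipsilateral array the lowest. How the arrays lie is therefore only a description. Their median level was 5.99, 6.74, 5.94 and 6.06. In 74 of them the WT ipsilateral array was the highest of the 4, against 4232 of the 13328 detected genes. The KO ipsilateral array was the lowest of the 4 in 45, against 4068 of the 13328. In the contralateral pair their differences lay on both sides of 0, with 33 above and 43 below and a median of -0.05. Of the 77, 66 were above background on both ipsilateral arrays. For the rest the KO ipsilateral array was below background, so the values secure only the difference from background, which can be far smaller. For 9430091E24Rik the levels differed by -0.76, but the bound is -0.08. In 12 of the 77 the gene had another detected probe set, and in 9 of these all of them had the same sign. Hfe, Nubp1 and Rmdn1 did not, and are uncertain. The 12 higher genes were less uniform, with the KO ipsilateral array highest in 10 and the WT ipsilateral array lowest in 8. Their choice favours both, and over all 13328 detected genes these counts were 2704 and 4512.

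Calml4 and Ecrg4 had the lowest differences after P4htm. Calml4, a calmodulin-like protein of brush borders, read 4.74, 6.49, 4.29 and 4.82, and was above background by little in the KO ipsilateral array, a difference of -1.67. Ecrg4, which encodes the secreted peptide augurin, read 6.35, 8.38, 6.48 and 7.22. It was raised on the injured side of each genotype, but less in the P4htm-/- tissue, by a difference of -1.16, and its other probe set gave -1.05. Both stood in a list of 22 choroid plexus genes, the tissue that secretes cerebrospinal fluid, of which 18 lay below 0 with a median of -0.10, against -0.05 contralaterally. The 2 were its only lower members of 17 detected, against 0.578% of all detected genes. The median level of this list was 5.15, 6.10, 4.96 and 5.82. Ttr, transthyretin, its most abundant member, read 8.71, 14.06, 9.03 and 13.62, a difference of -0.44, so it was far higher on the injured side of both genotypes. Aqp1, a water channel, had a difference of -0.55. Its other defining markers differed less, Folr1 by -0.10, Kcnj13 by -0.07, Sostdc1 by -0.09 and Kl by 0.18. The part of choroid plexus tissue in the differences of Calml4 and Ecrg4 was not tested.

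Of the S100 calcium-binding proteins, 10 were detected and 3 of these were lower, the largest share of any list with 5 or more detected members, against 0.578% of all detected genes. S100a4, a marker of motile and fibroblast-like cells, read 5.90, 7.56, 5.80 and 6.58, a difference of -0.98. S100a6 read 8.58, 9.74, 8.31 and 9.07, and S100a16 read 10.28, 11.13, 10.18 and 10.49, with differences of -0.67 and -0.64. The second probe set of S100a16 gave -0.62. In all 3 the WT ipsilateral array was highest, the KO ipsilateral array was between it and the contralateral arrays, and the contralateral arrays differed by -0.27 to -0.10. S100a10 and S100a13 each had a difference of -0.52, and S100a1 one of -0.44. The list median was -0.33 over 14 genes, the lowest of the lists described, and -0.06 contralaterally. S100a8 and S100a9, the calprotectin subunits that neutrophils carry, went the other way. S100a8 read 4.72, 7.20, 5.28 and 7.62, and S100a9 read 4.28, 6.74, 5.39 and 6.96.

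Secreted signals of the immune response were lower in a few members. Lif, leukemia inhibitory factor of the interleukin-6 family, read 4.47, 6.08, 4.78 and 5.02, so that it was above background in both injured cortices and in neither contralateral one. Its difference was -1.06. Lif was the 1 lower member of 15 detected in its family list, against 0.578% of all detected genes. The family as a whole did not move with it, with 7 members above and 8 below 0. Il11 read 4.66, 6.82, 4.37 and 6.48, Il6 read 3.29, 4.96, 3.67 and 4.77, Socs3, the feedback inhibitor of this pathway, had a difference of -0.18 and the receptor Lifr one of 0.22, and the median of the 15 genes was -0.01, against 0.09 contralaterally. Of the CC chemokines and their receptors 16 were detected and 4 were lower, against 0.578% of all detected genes. Ccl9, which attracts myeloid cells, had a difference of -0.76, and its second probe set, below background on the KO ipsilateral array, was also lower there. Ccl12, a ligand of Ccr2, read 5.15, 9.66, 5.23 and 8.99, so that most of its rise with injury was present in the P4htm-/- tissue. Ccl8 read 5.57, 6.33, 5.21 and 5.66, and Ccl6 had a difference of -0.63. Ccl3 had a difference of -0.46, and 20 of 28 members lay below 0, with a median of -0.14 against -0.03 contralaterally. Ccl2, a chemokine for monocytes, read 4.77, 6.12, 4.58 and 5.96, a difference of -0.16. Among the CXC and CX3C chemokines and receptors none of 11 detected genes passed the fold rule, and the median was 0.06 against 0.04. Cxcl14 was furthest at -0.47, and Cxcl10, an interferon-induced chemokine, read 4.20, 6.33, 3.82 and 6.48.

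The TNF, interleukin-1, interferon response and antigen presentation lists had medians between -0.06 and 0.01, and contralaterally between -0.04 and 0.03. Toll-like receptors and their adaptors had a median of -0.08 against -0.06 contralaterally. Complement genes had one of -0.09 against 0.01, with 12 of 19 below 0. In the TNF superfamily, 1 of 20 detected genes was lower, against 0.578% of all. Tnfrsf12a, the receptor of TWEAK, read 7.62, 8.93, 7.40 and 8.27, a difference of -0.66 that its second probe set gave as -0.56. Nfkb2, a subunit of the NF-kappaB factors, had a difference of 0.45. Of the interleukin-1 axis and inflammasome none of 14 detected genes passed, and Pycard, the inflammasome adaptor, was furthest, at 6.79, 8.32, 6.79 and 7.76. The interferon response genes split evenly, 16 above and 16 below 0, with Rsad2, an antiviral enzyme, at 6.08, 6.86, 6.52 and 7.42 and Irf7 at 0.37. In antigen presentation 2 of 17 detected genes were lower, against 0.578% of all. H2-Ab1, a chain of MHC class II, read 5.46, 6.21, 5.30 and 5.58, and Cd1d1, which presents lipids, read 4.77, 5.77, 5.61 and 5.13. Cd1d1 was lower by -0.64 on the injured side and higher by 0.84 on the other. H2-Aa, the partner chain of H2-Ab1, had a difference of -0.27 and Cd74, the invariant chain, one of -0.18.

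The marker lists of immune cells differed in sign. Of 16 neutrophil genes 13 lay above 0, with a median of 0.17, and 10 were detected. The contralateral median was 0.12. Ngp was the only higher member, 1 of the 10 detected, against 0.0900% of all detected genes. Fcnb had a difference of 0.41 and Ltf, lactoferrin, one of -0.13. Lcn2, lipocalin-2, read 4.89, 6.54, 4.11 and 6.72. For macrophages and phagocytes the median was -0.08 against 0.01 contralaterally, with 16 of 24 below 0. Cybb, the catalytic subunit of the phagocyte NADPH oxidase, was the 1 lower member of 20 detected, against 0.578% of all detected genes. Its KO ipsilateral array was below background, so its difference is bounded at -0.29. Cd68, a lysosomal protein of these cells, read 6.78, 7.78, 6.67 and 7.23, while Ms4a6c had a difference of 0.48. Of the 19 microglial genes 14 lay below 0, with a median of -0.07, and in the contralateral pair 14 did as well, with a median of -0.09. Tyrobp, an adaptor of microglial receptors, read 9.40, 10.25, 9.36 and 9.69, and Aif1, which encodes Iba1, had a difference of -0.40. Cx3cr1 had one of -0.17.

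Matrix-degrading enzymes, induced by injury and known to open the vessel wall, included 2 lower genes of 25 detected, against 0.578% of all. Mmp3, stromelysin, read 3.56, 6.46, 4.02 and 5.79, and Mmp12, macrophage elastase, read 3.62, 5.30, 4.50 and 4.68. As Mmp12 was below background in the KO ipsilateral array, its difference is bounded at -0.50. Timp1, an inhibitor of these enzymes, read 4.37, 8.29, 4.99 and 7.71, a difference of -0.58 just inside the fold rule. The median of these genes was 0.00, and -0.02 contralaterally. The genes of meninges and fibroblasts lay below 0 in 18 of 24 members, with a median of -0.17, against -0.01 contralaterally. Of the 23 detected, 1 was lower, against 0.578% of all detected genes. Mgp, matrix Gla protein, read 9.58, 10.70, 9.65 and 10.10, and Col3a1, a fibrillar collagen, read 6.20, 7.88, 6.08 and 7.33. Col6a3, a chain of collagen VI that stood in no list, read 5.44, 6.12, 5.53 and 5.39, a difference of -0.73. Dmkn, dermokine, read 7.02, 7.91, 6.48 and 7.08.

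Reactive astrocyte genes were raised on the injured side in both genotypes, with a median level of 6.04, 8.27, 6.25 and 7.71, and none of the 24 detected was past the fold rule between the genotypes. Vim, vimentin, read 9.19, 10.74, 9.09 and 10.46, and Gfap, the glial filament protein, read 8.07, 10.20, 8.14 and 9.97. Cd44, a receptor for hyaluronan, had a difference of -0.39, and Tm4sf1 one of -0.50. The median of these 25 genes was -0.08 against 0.04 contralaterally. Homeostatic astrocyte genes had a median of -0.04 against -0.05. Aqp4, the water channel of astrocyte endfeet, had a difference of -0.11, and Slc1a2, the glial glutamate transporter, one of 0.17.

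Markers of neurons lay above 0 in 22 of 23 members and below it in 0, with a median of 0.15 against -0.02 in the contralateral pair. None passed the fold rule. In 22 of the 23 the WT ipsilateral array was the lowest of the 4, and the KO ipsilateral array was close to the contralateral arrays. Tbr1, a transcription factor of cortical excitatory neurons, read 9.30, 8.76, 9.13 and 9.26, a difference of 0.50. Syt1, the calcium sensor of transmitter release, read 13.49, 13.23, 13.47 and 13.51. Map2, of dendrites, read 12.61, 12.32, 12.55 and 12.52. Rbfox3, which encodes NeuN, had a difference of 0.14, Snap25 one of 0.09 and Stmn2 one of 0.01. Pyramidal neuron genes gave 13 of 14 above 0, with a median of 0.16 against 0.02 contralaterally, led by Fezf2, a factor of deep layer neurons, at 8.97, 8.72, 9.11 and 9.10. Striatal neuron genes had the same median against -0.06 contralaterally, with Drd2, a dopamine receptor, at 0.41, and 4 of 13 below 0. Other neuron lists did not lie above 0. Interneuron genes had a median of -0.01 against 0.00, with Pvalb, parvalbumin, at -0.32. Genes of hippocampal and thalamic neurons had a median of -0.10 against -0.08, with 10 of 15 below 0 and Prkcd, a kinase, at -0.52. Spink8 was the 1 lower member of 13 detected, against 0.578% of all detected genes. Hypothalamic neuropeptides had a median of -0.15 against 0.25, with 5 of 9 below 0. Pmch was the 1 higher member of 8 detected, against 0.0900% of all detected genes.

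Families through which neurons signal, and the clock, also had medians above 0. Glutamate receptor genes lay above 0 in 17 of 22, with a median of 0.16 against 0.03 contralaterally. Grin2b, a subunit of NMDA receptors, read 10.63, 10.46, 10.86 and 10.96, a difference of 0.50, and its other probe set gave 0.31. Grik3, a kainate receptor subunit, read 9.01, 8.33, 8.80 and 8.74. Voltage-gated ion channel genes lay above 0 in 37 of 53, with a median of 0.15 against 0.01. Scn2a, a sodium channel of axons, read 11.93, 11.69, 11.97 and 12.03, and Cacna1e, a calcium channel, had a difference of 0.32. GABA receptor subunits had a median of 0.03 against -0.04. The genes of the circadian clock lay above 0 in 18 of 21, with a median of 0.15, but also had a contralateral median of 0.10. Npas2 read 8.51, 8.06, 8.51 and 8.38, Arntl, its partner BMAL1, had a difference of 0.30 and Per1, a repressor of the pair, one of 0.25. MAP kinase genes had a median of 0.06 over 61 genes, against 0.01 contralaterally. Mapkapk3, a kinase downstream of p38, was the single lower member of 59 detected, against 0.578% of all detected genes. It read 6.07, 6.59, 5.91 and 6.00. Dusp1, a phosphatase that opposes p38, had a difference of 0.44.

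**Figure D3:**
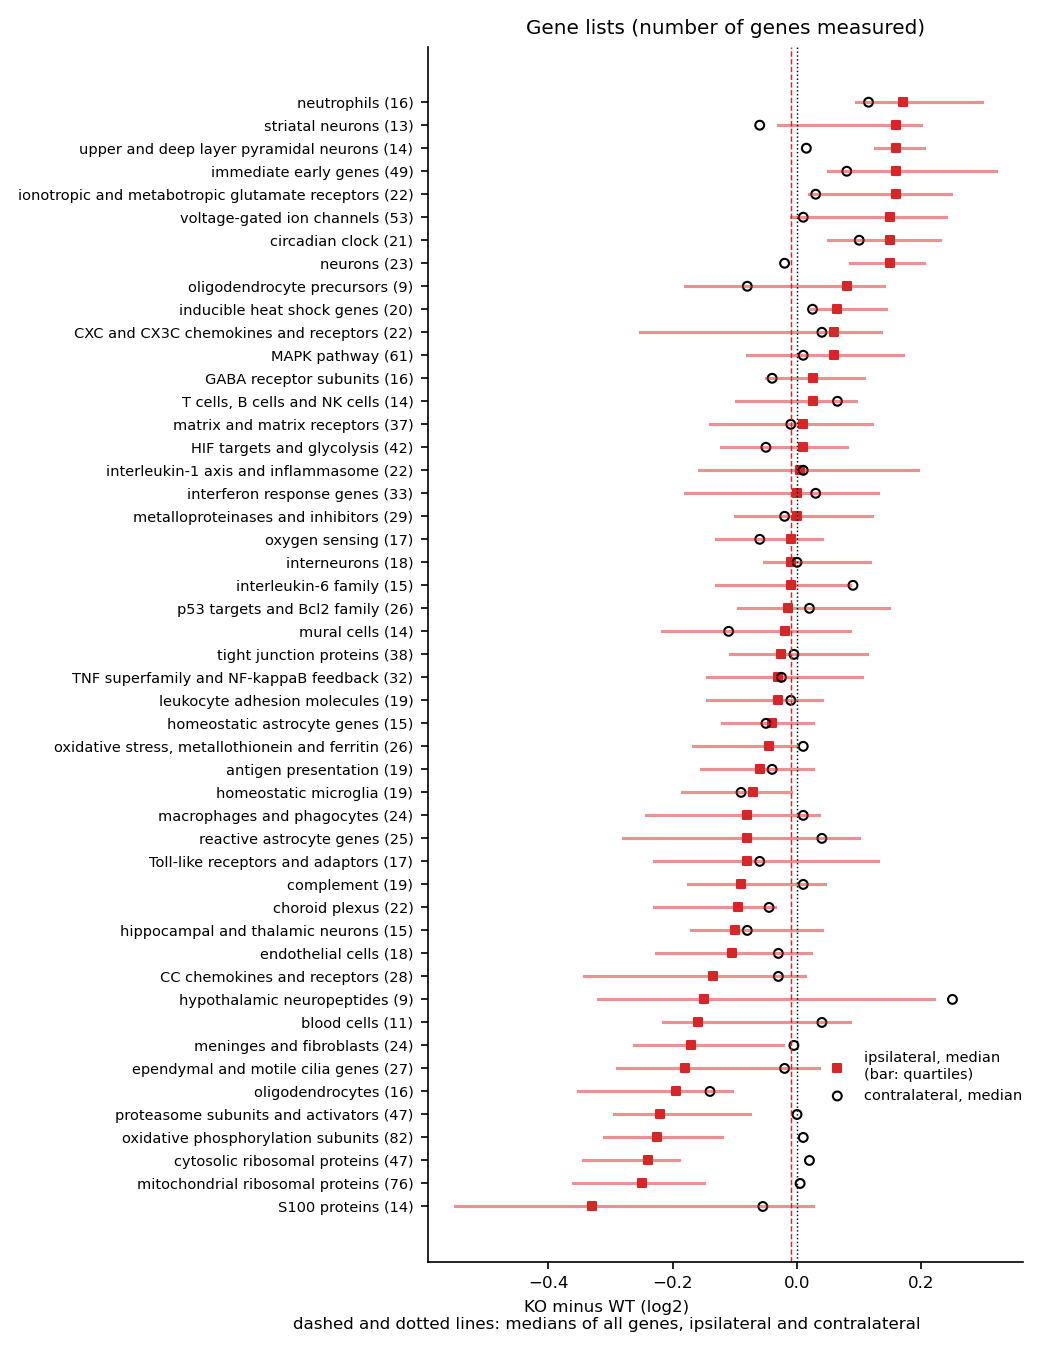
The median KO minus WT difference (log2) of each gene list, with the number of genes measured, in ipsilateral cortex (red squares, with bars from the lower to the upper quartile of the genes) and contralateral cortex (black circles). Lists of the ribosome, respiration and the proteasome lie between -0.25 and -0.22 on the ipsilateral side and near 0 on the contralateral side. Neuron, pyramidal neuron, striatal neuron, glutamate receptor and ion channel lists lie near 0.15, while interneuron and hippocampal and thalamic lists do not.

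Large families of proteins used by every cell lay below 0 almost throughout. Of 47 cytosolic ribosomal protein genes, 45 lay below 0, with a median of -0.24. Of 76 mitochondrial ribosomal protein genes 70 did, with a median of -0.25, of 82 subunits of oxidative phosphorylation 70 did, with a median of -0.23, and of 47 proteasome genes 40 did, with a median of -0.22. The contralateral medians were 0.02, 0.01, 0.01 and 0.00. Past the fold rule, 2 of 44 detected cytosolic ribosomal genes and 1 of 79 detected respiratory genes were lower, against 0.578% of all detected genes. Of the 76 mitochondrial ribosomal and 45 proteasome genes detected, 0 were. Rpl12, of the large ribosomal subunit, read 6.30, 6.66, 6.37 and 6.00, and Rps27l, a target of p53 that resembles a ribosomal protein, read 9.47, 10.38, 9.62 and 9.76, with -0.75 and -0.69 from its other probe sets. Cox7c, a subunit of cytochrome c oxidase, read 6.59, 6.89, 6.76 and 6.26. Rpl12 and Cox7c lay far below the median levels of their lists, 12.64 and 12.04 on the WT contralateral array. Whether their probe sets read the main transcript was not tested. Among the members that did not pass, Rpl35 read 13.11, 13.49, 13.12 and 13.06, Atp5e, of ATP synthase, had a difference of -0.53, Mrpl41 of -0.58 and Psma3, of the proteasome core, of -0.42. The WT ipsilateral array was the highest of the 4 in 43 of the 47 cytosolic ribosomal genes, 64 of the 76 mitochondrial ribosomal genes, 67 of the 82 respiratory genes and 38 of the 47 proteasome genes. The KO ipsilateral array was the lowest of the 4 in 24 of the 47 cytosolic ribosomal, 54 of the 76 mitochondrial ribosomal, 62 of the 82 respiratory and 17 of the 47 proteasome genes.

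**Figure D4:**
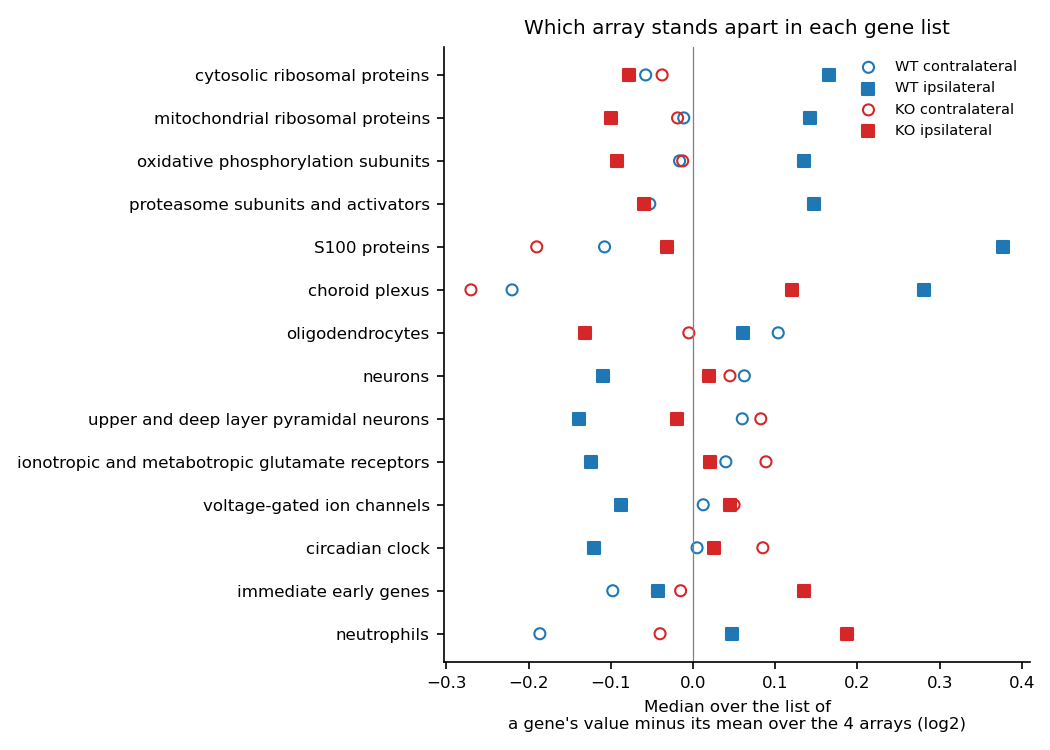
For each list and each of the 4 pooled arrays, the median over its genes of the level minus the mean of the gene over the 4 arrays (log2). The WT ipsilateral array (filled blue) lies furthest from 0 in the ribosomal, respiratory and proteasome lists and in the neuron, pyramidal neuron, glutamate receptor, ion channel and clock lists. Of the ribosomal, respiratory and proteasome lists, the KO ipsilateral array (filled red) lies below both contralateral arrays in all but the proteasome list. For oligodendrocytes, immediate early genes and neutrophils the KO ipsilateral array lies at one end.

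Some measures of the arrays themselves moved with these families and others did not. The 3′ probe sets of 4 poly-A labelling controls, bacterial RNAs used to follow the labelling, were highest on the WT ipsilateral array, at a mean of 8.58, 8.83, 8.58 and 8.64, and differed between the ipsilateral arrays by -0.25 to -0.13 with a mean of -0.19. In the contralateral pair they differed by -0.05 to 0.05. The middle and 5′ probe sets of these controls did not set the sides apart, with mean differences of -0.12 and -0.14 ipsilaterally and of -0.15 and -0.16 contralaterally. The 3′ minus 5′ difference in level, a measure of RNA and labelling quality, was 0.94, 1.10, 1.33 and 1.16 for Gapdh and 1.67, 1.73, 1.97 and 1.78 for Actb, so that it was close between the ipsilateral arrays and not between the contralateral ones. The hybridization controls, added after labelling, differed by -0.09 to 0.13 between the ipsilateral arrays. The difference also followed the span of the gene in the genome. The detected genes were put in 10 bins of equal size by span. From the bin with the shortest genes, a median of 2.66 kb, to that with the longest, 228 kb, the median ipsilateral difference went from -0.09 to 0.09, and in the contralateral pair from 0.00 to -0.02. Of the 77 lower genes 22 lay in the shortest bin and 0 in the longest, and of the 12 higher genes 5 and 3. The median span was 10.2 kb for the lower and 7.02 kb for the higher genes, against 23.65 kb for all detected genes. The higher genes thus did not follow the slope. The WT ipsilateral array carried this slope, since its median difference from the WT contralateral array went from 0.09 to -0.12, while that of the KO ipsilateral array was -0.03 in every bin but the longest, where it was -0.04. With the median of its own bin taken off each gene, the list medians were -0.16 for cytosolic ribosomal, -0.20 for mitochondrial ribosomal, -0.17 for respiratory and -0.17 for proteasome genes, 0.15 for neuron markers, 0.21 for immediate early genes, 0.08 for pyramidal neuron genes, 0.09 for glutamate receptors, 0.14 for ion channels and 0.11 for the clock. This centring was chosen after the data were seen. The part of gene span and labelling in these differences was not tested.

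**Figure D5:**
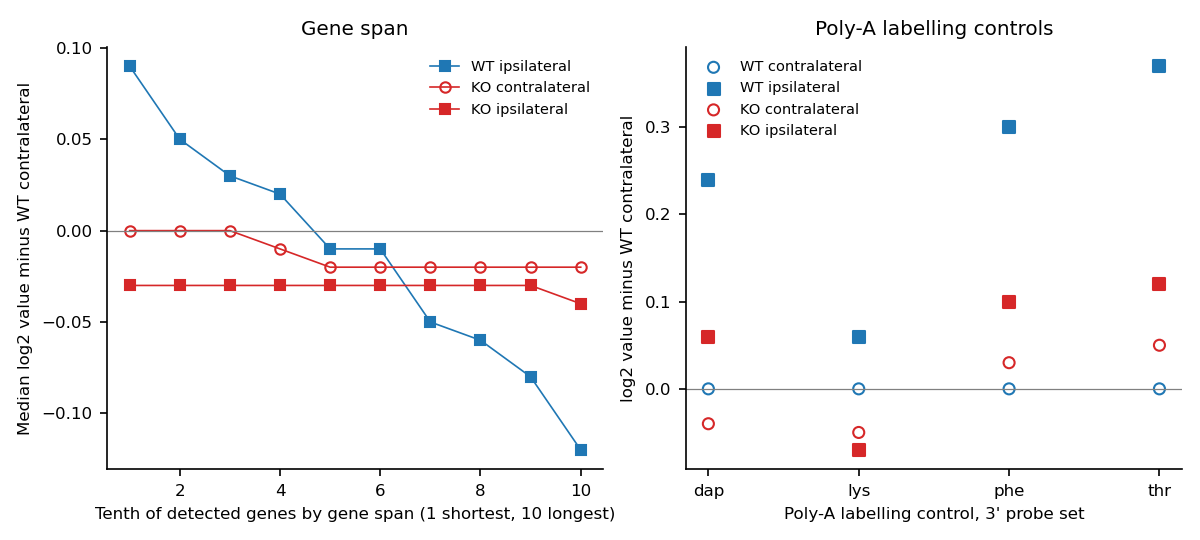
Left, the median log2 level minus that of the WT contralateral array over 10 bins of the detected genes ordered by gene span, for the other 3 pooled arrays. Right, the 3′ probe sets of the 4 poly-A labelling controls on each array, as log2 level minus that of the WT contralateral array. The WT ipsilateral array has a slope from 0.09 to -0.12 with span and the highest value of all 4 controls.

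Oligodendrocyte genes lay below 0 in all 16 members, with a median of -0.20, and the contralateral median was -0.14. Here it was the KO ipsilateral array that was the lowest of the 4, in 14 of the 16. Opalin, a myelin glycoprotein, read 8.55, 8.59, 8.14 and 8.03, and Mobp, of myelin, read 12.78, 12.80, 12.67 and 12.37. Aspa, an enzyme of these cells that breaks down N-acetylaspartate, had a difference of -0.50. Mbp, myelin basic protein, which lies near the top of the range of the arrays, differed by -0.06. None passed the fold rule. Genes of ependymal cells and motile cilia had a median of -0.18 against -0.02 contralaterally, and 18 of 27 lay below 0. Mia was the 1 lower member of 18 detected, against 0.578% of all detected genes. It read 5.69, 5.78, 5.51 and 5.09, and Ccdc153 had a difference of -0.54. Endothelial genes had a median of -0.11 against -0.03, with Egfl7 at -0.37 and Slco1a4, a transporter of brain vessels, at -0.31, and mural cell genes had a median of -0.02 against -0.11.

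The genes that respond to oxygen through HIF did not separate the genotypes in the injured cortex. Of 42 HIF targets and glycolytic genes 22 lay above and 19 below 0, with a median of 0.01 against -0.05 contralaterally, and 0 of the 40 detected were past the fold rule. Ankrd37 was the lowest at -0.47, and Pmaip1, which encodes the cell death protein Noxa, the highest at 0.47, with levels of 6.02, 6.03, 5.86 and 6.50 that set the KO ipsilateral array apart. Vegfa, the vessel growth factor, read 7.80, 7.93, 7.82 and 7.75. Bnip3, a mitophagy receptor, had a difference of -0.23, Slc2a3, the neuronal glucose transporter, one of 0.23 and Slc2a1, its vascular counterpart, one of 0.20. In the oxygen sensing list, whose median was -0.01 against -0.06, P4htm was the only gene past the fold rule, and Vhl, which marks hydroxylated HIF for breakdown, had a difference of -0.23. Hif1a read 10.14, 10.13, 9.94 and 10.18. Tight junction genes, which seal brain vessels, had a median of -0.03 over 38 genes, against -0.01 contralaterally, and 0 of the 28 detected past the fold rule. Cldn5, of vascular junctions, read 9.51, 9.75, 9.58 and 9.64, Ocln, occludin, read 7.31, 7.06, 7.06 and 6.84, and Tjp1, a scaffold protein of the junction, had a difference of 0.04. Ccl2, Vegfa, Hif1a, Slc2a1, Cldn5 and Tjp1 are named because they or their pathway were also assayed in the study by other methods. An absence of replicates leaves unknown how far such small differences lie from the variation between mice.

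Near P4htm on chromosome 9 a larger share of genes was past the fold rule than elsewhere. Of 153 detected genes within 100 places of it in the gene order, P4htm aside, 1 was higher and 5 were lower, 3.92%, against 0.668% of all detected genes in either direction. Within 50 places the share was 2.5% and within 200 places 2.46%. Spink8, a protease inhibitor gene 26 places away, read 6.31, 6.51, 5.23 and 5.49, and Ppm1m, a phosphatase gene 77 places away, read 9.21, 9.09, 8.47 and 8.46. In both, the P4htm-/- arrays lay below the WT arrays on both sides of the brain. Abhd14b, 69 places away, was lower by -0.71 on the injured side and read -0.35 on the other. Poc1a and Mapkapk3 were lower on the injured side, with contralateral differences of 0.05 and -0.16. Ngp, 38 places away, was the higher gene. Whether DNA of the strain in which the line was made remains around P4htm was not tested.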

How the data were processed

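Cortex RNA was measured on 4 Affymetrix mouse arrays, 1 per condition, each with RNA of 4 mice. The table the authors deposited holds a log2 value for each probe set, computed by RMA (background correction, quantile normalization and summarization), which removes a shift shared by all genes of an array. The base of the logarithm was taken as 2 from the range, 2.51 to 14.9. Arrays give no counts, so the number of arrays limits the precision. All columns were used, leaving 0 unused.

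Of 45101 probe sets, 34958 name 1 gene, 932 several and 9211 none. Each gene is represented by its probe set of highest mean over the 4 arrays. Symbols, gene spans and gene order came from RefSeq for GRCm38.p6, and the array table names no build. A few genes are not reported here.

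The genes, the lists and the comparison were chosen with earlier results of these data known. Genes named are P4htm, the 20 highest and 20 lowest detected genes with agreeing probe sets, list members past 1.5-fold, up to 6 further detected members per list, the first 4 markers of a cell type and genes past 1.5-fold on both sides. Fos, Hspb1, Hsph1, Cxcl10, Map2, Kcnj13, Sostdc1, Hfe, Nubp1, Rmdn1, Poc1a, Chil3 and the genes the study assayed otherwise were named after their values were seen.

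Alternatives were the choice of probe set, the detection filter, the 2-fold rule, median centring, cyclic loess and centring by gene span. The counting step was tested on simulated data with 200 changed genes. Python 3.11.15 with pandas 2.3.3 and numpy 2.4.6, and R 4.3.3 with limma 3.58.1, were used.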

Additional observations from a re-analysis of the deposited data

Results flagged for a closer look

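Cd1d1 and Pmch differed between the genotypes in opposite directions on the 2 sides of the brain, each past 1.5-fold. Cd1d1 was lower by -0.64 in the injured P4htm-/- cortex and higher by 0.84 in the contralateral one. Pmch was higher by 0.62 in the injured cortex and lower by -0.75 on the other side. These opposite directions rest on 1 pooled array for each condition and were not tested.

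Probe sets shared by the alpha globin genes Hba-a1 and Hba-a2 name several genes and were outside the gene table. The 3 of them were higher in P4htm-/- injured cortex by 0.92, 0.85 and 0.86, and by 1.39, 1.38 and 1.19 in contralateral cortex. The brightest read 9.73, 11.10, 11.11 and 11.95 in WT contralateral, WT ipsilateral, KO contralateral and KO ipsilateral cortex. Hbb-b2, a beta globin gene with a probe set of its own, read 5.06, 6.14, 6.04 and 6.26. The list of 11 blood cell genes, of which 5 were detected, had an ipsilateral median of -0.16, with 7 below 0 and 0 higher, and a contralateral median of 0.04. The part of blood left in the tissue was not tested.

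The 3′ probe sets of the 4 poly-A labelling controls, which measure RNA added at the bench, had a mean KO minus WT difference of -0.19 in the ipsilateral pair and all 4 were below 0. Their part in the gene differences was not tested.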

How the results depend on the processing

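No paired analysis was possible because each condition has 1 pooled array and no replicate numbers. Counts of higher and lower genes in injured cortex were 12 and 77. They were 8 and 58 with all probe sets of a gene averaged, 14 and 78 with probe sets ending in _at preferred, 10 and 66 with detection on both arrays, 12 and 77 with median centring and 12 and 81 with cyclic loess, all within 1.5 times. Without a detection filter 24 were higher and 97 lower. With the 99th percentile of the receptor probe sets as background, 6.60, 7 and 40 were left, and under the 2-fold rule 0 and 5. Contralateral counts, 30 and 21, were 53 higher without a filter, 16 higher with averaged probe sets, 13 lower with detection on both arrays, 13 and 2 at the 99th percentile and 4 and 2 under the 2-fold rule. Of called contralateral genes 58.8% were higher, 67.9% with median centring and 51.0% with cyclic loess. The causes were not tested.

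Of the list medians, 276 of those recomputed stayed within 0.05 and 27 moved further. A further 3, each at least 0.05 in size at first, changed sign. Smaller medians that changed sign, such as that of interneurons, were counted only by the size of their move. With averaged probe sets the median was 0.07 for striatal neurons, 0.075 for ion channels, 0.10 for the clock, -0.16 for the proteasome, 0.00 for sex-linked genes and 0.0233 for hippocampal and thalamic neurons, the last from -0.10. With _at probe sets it was 0.00 for Toll-like receptors and -0.07 for oxygen sensing. With detection on both arrays it was -0.22 for hypothalamic peptides, -0.28 for CC chemokines, -0.06 for the interleukin-1 axis, -0.005 for Toll-like receptors, -0.06 for interferon genes, -0.48 for S100 proteins and -0.16 for histones. Centring by gene span, chosen after seeing the data, gave 16 higher and 52 lower genes and medians of 0.075 for pyramidal neurons, 0.055 for interneurons, -0.03 for lymphocytes, -0.09 for mural cells, -0.16 for choroid plexus, -0.24 for ependymal genes, -0.26 for CC chemokines, -0.01 for complement, -0.41 for S100 proteins, 0.09 for glutamate receptors, -0.17 for respiratory genes, -0.16 for cytosolic ribosomal genes and -0.23 for sex-linked genes. It turned oligodendrocyte precursors from 0.08 to -0.01 and Toll-like receptors from -0.08 to 0.15. Genes named by rank changed sign under none of the alternatives run, while Cdkl1, Uevld, Chsy3, Dach1, 9430091E24Rik, Susd3 and Tmco5 were inside 1.5-fold with averaged probe sets, and Chsy3, Astn2 and Dach1 with centring by gene span. Signal close to background limits genes such as Ngp, Astn2, Mmp12 and Cybb.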

Other observations

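Some lower genes in injured P4htm-/- cortex that stand in no list are given here with what they are known for, and were picked after their values were seen, so no theme is drawn from them. Snhg3, Snhg6 and Dancr, noncoding RNAs, had differences of -0.71, -0.60 and -0.67, and Snhg6 read 10.34, 10.90, 10.31 and 10.30 in WT contralateral, WT ipsilateral, KO contralateral and KO ipsilateral cortex. Rpa3, a subunit of the protein that coats single-stranded DNA, read 7.92, 8.48, 7.81 and 7.69, and Rfc4, of the clamp loader of DNA replication, read 5.94, 6.38, 5.94 and 5.76. Dnajc15 and Immp1l, both proteins of the mitochondrial inner membrane, each had a difference of -0.68. Serpinb1a and Serpinb1b, inhibitors of neutrophil proteases, had differences of -0.63 and -0.85. In each of these genes the WT ipsilateral array was the highest, an order that their choice as lower genes favours.

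The largest positive difference of the whole table was that of Chil3, a chitinase-like protein of myeloid cells, at 1.19, but it read 3.33, 3.33, 3.09 and 4.52 and was below background on every array. Among probe sets that name several genes, 584 were detected in the ipsilateral pair, and 5 were higher and 3 lower. Among those with no gene name 3130 were detected, and 16 were higher and 12 lower. Y-linked Eif2s3y read 8.42, 8.40, 8.13 and 7.93, and Xist lay between 4.60 and 4.86 on the 4 arrays.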
